A study of Mus musculus with 4 samples.

Results

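The junction genes examined here are 8 of the 24421 gene rows in the count table, taken by name, with no threshold on a measured value: Cdh5, Cdh2, Ctnnb1, Ctnna1, Ctnnd1, Jup, Pecam1 and Esam. They encode VE-cadherin, N-cadherin, beta-catenin, alpha-catenin, p120-catenin, plakoglobin, PECAM-1 (CD31) and the endothelial adhesion molecule ESAM. RNA was sequenced from lymphatic endothelial cells of mouse lung at postnatal day 0, sorted as CD45-negative, CD31-positive, GFP-positive cells from pools of 3 to 5 mice. The Jun-Ctrl group (2 libraries) was Prox1-CreER;Junf/+;Rosa26-mTmG, and the Jun-cKO group (2 libraries) was Prox1-CreER;Junf/f;Rosa26-mTmG, so animals of both groups carried the Cre driver, the reporter and at least 1 floxed Jun allele. CreER is a recombinase that acts only once tamoxifen or a related ligand is given, Prox1 is the gene whose promoter drives it in lymphatic endothelium, and mTmG is a reporter that switches to GFP after recombination. The design text of the series speaks of Prox1-GFP mouse lungs, and has cells of 3 replicates of a group mixed before RNA amplification, so a p-value here measures the spread between libraries alone, and that spread may be technical (n = 2 per group throughout).

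Adherens junctions join neighbouring cells through cadherins, which bind each other across the gap and hold catenins on their inner tails. Beta-catenin and plakoglobin compete for the same stretch of the tail and pass the link on to alpha-catenin and actin, while p120-catenin binds closer to the membrane and keeps the cadherin at the surface. In lymphatic capillaries VE-cadherin is gathered into discontinuous, button-like junctions, whereas collecting vessels have continuous, zipper-like ones, and lymphatic endothelium is known for junctions that also hold plakoglobin and desmoplakin.

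Library totals ran from 6483514 to 16037416 counts, and replicate 2 was the shallower library in both groups. The targeted gene, Jun, stood at 472 and 433 CPM (the count scaled to library size with TMM factors) in Jun-Ctrl and at 524 and 475 CPM in Jun-cKO. It did not fall, with a log2 fold change of 0.14 and an adjusted p of 0.354 in the edgeR quasi-likelihood fit (Benjamini-Hochberg adjustment over all tested genes), and it was higher after GC correction (0.29, adjusted p = 0.0399). Counts over the whole gene cannot show whether the floxed part was lost. The other group is therefore spoken of as the libraries labelled Jun-cKO, and each direction rests on that label. The 10 lymphatic markers summed to 14521 and 13408 CPM in Jun-Ctrl and to 18615 and 19202 CPM in the other group. Of 9 tested, 4 rose and 2 fell. Lyve1 rose from 6402 and 5971 to 8641 and 10260 CPM, and Flt4 fell from 1677 and 1499 to 1201 and 897 CPM. Prox1 went from 39.3 and 43.6 to 34.2 and 31.9 CPM without a call (log2 fold change -0.31, edgeR adjusted p = 0.0686). After GC correction Prox1 passed as lower (-0.38, adjusted p = 0.0207). Ccl21a had 0 counts in all 4 libraries. RNA of cells outside the endothelium was present too, more of it in Jun-Ctrl: 14 lung epithelial markers summed to 1772 and 1875 CPM there and to 200 and 197 CPM in libraries labelled Jun-cKO, and 12 leukocyte markers to 507 and 501 against 227 and 203 CPM. The 12 mesenchymal markers summed to 337 and 339 against 108 and 115 CPM. The 12 blood endothelial markers summed to 968 and 997 against 1067 and 1071 CPM, with 3 higher and 4 lower of 10 tested. That sum was higher only through Ednrb, at 296 and 286 against 545 and 565 CPM. In such bulk libraries fewer cells of a type and less RNA per cell cannot be told apart.

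VE-cadherin transcripts were abundant in these cells, and alpha- and beta-catenin transcripts were far more abundant still. Per kilobase of gene length, which is the scale on which genes are compared here, Ctnna1 led with 743 ± 21.0 CPM per kilobase in Jun-Ctrl (mean ± SD), above 99.2% of tested genes. Ctnnb1 followed at 516 ± 47.9, Pecam1 at 167 ± 7.08 and Cdh5 at 127 and 123 CPM per kilobase. Jup stood at 39.8 ± 0.519, Ctnnd1 at 31.4 ± 1.51 and Esam at 13.7 ± 1.23 CPM per kilobase. The libraries of neighbouring genes in this order did not overlap in Jun-Ctrl. In libraries labelled Jun-cKO the order was the same except for Jup, which at 14.8 ± 1.37 CPM per kilobase lay below Ctnnd1 (31.9 ± 1.42) and overlapped Esam (14.1 ± 0.739). RNA was amplified before sequencing and reads need not cover a transcript evenly, so levels per kilobase are approximate.

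**Figure D1:**
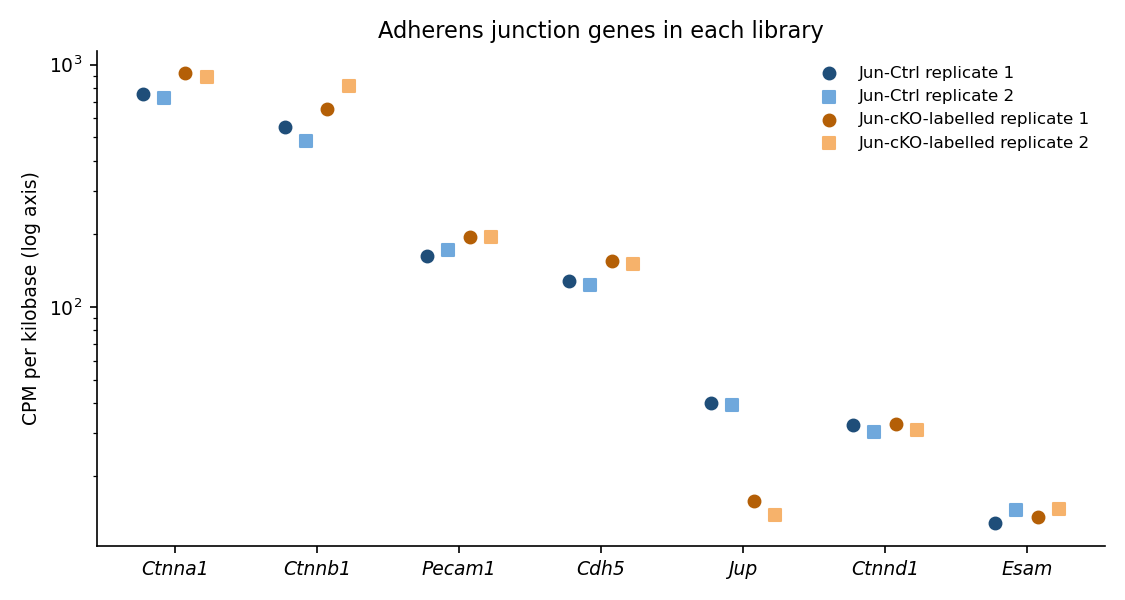
Level of 7 genes in each of the 4 libraries, in CPM per kilobase of gene length on a log axis; each point is a library. Ctnna1 and Ctnnb1 lie highest, and Jup is the gene whose Jun-cKO-labelled points (15.7 and 13.8) lie far below its Jun-Ctrl points (40.1 and 39.4); Cdh2, with 0 counts in a library, is not drawn.

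Of the 8 genes, 7 passed the filter on low counts and were tested, and 2 of the 7 changed: Ctnnb1 rose and Jup fell. Over all 12656 tested genes 41.5% were called, 19.0% higher and 22.5% lower, so a share of 2 in 7 does not stand above the background. Libraries of the groups did not overlap in CPM for 5 of the 7, against 71.3% of all tested genes. The median log2 fold change of the 7 was 0.22, against 0.01 over all tested genes. With a correction for GC content 3 of the 7 passed, Cdh5 being added, against 38.3% of 12192 genes.

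Plakoglobin and beta-catenin, the armadillo-repeat proteins that compete for the cadherin tail, went opposite ways. Jup was at 201 and 197 CPM in Jun-Ctrl and at 78.8 and 69.1 CPM in libraries labelled Jun-cKO. Both Jun-cKO-labelled libraries were far below both Jun-Ctrl libraries. The fall was 2.68-fold (95% interval 2.27 to 3.16), or -1.42 on the log2 scale (SE 0.12; edgeR, adjusted p = 6.81e-14). Of 3913 tested genes with a mean of at least 50 CPM, 30 (0.767%) had a log2 fold change at or below that of Jup. Over all 12656 tested genes, 880 (6.95%) had a lower log2 fold change than Jup. The call held in each of 15 alternatives, with log2 fold changes from -1.53 to -1.08, the smallest being after GC correction. The transcript is GC-rich, at 59.6%, higher than 94.0% of tested genes, and the 680 tested genes within 1 percentage point of that value had a median log2 fold change of -0.41.

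Ctnnb1 was at 1994 and 1748 CPM in Jun-Ctrl and at 2381 and 2958 CPM in libraries labelled Jun-cKO. The groups did not overlap, although the Jun-cKO-labelled libraries lay apart from each other by 0.31 and the Jun-Ctrl libraries by 0.19 on the log2 scale. Ctnnb1 rose 1.43-fold (95% interval 1.18 to 1.72), or 0.51 on the log2 scale (SE 0.14; edgeR, adjusted p = 0.00216). Without Jun-Ctrl replicate 2, the library with its lowest value, the call was lost (log2 fold change 0.40, adjusted p = 0.102). After GC correction the log2 fold change was 0.53 (adjusted p = 0.00384).

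The balance between transcripts of these catenins moved with both changes. The ratios here are without GC correction, after which the log2 fold changes were -1.08 for Jup and 0.53 for Ctnnb1. The ratio of Ctnnb1 to Jup, per kilobase, was 13.7 and 12.2 in the Jun-Ctrl libraries and 41.8 and 59.2 in libraries labelled Jun-cKO. Jup made up 6.80% and 7.55% of the summed level of this pair in Jun-Ctrl and 2.34% and 1.66% in libraries labelled Jun-cKO. Relative to VE-cadherin, Jun-Ctrl libraries had a Jup level of 0.315 and 0.319, and those labelled Jun-cKO one of 0.102 and 0.0920, all per kilobase. The Ctnnb1 level relative to Cdh5 was 4.32 and 3.91 against 4.27 and 5.44, so on that scale a Jun-cKO-labelled library lay between the Jun-Ctrl libraries. With 2 libraries in a group no exact permutation test of such a ratio could pass, and none was run.

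Because the label names a Jun allele and Jun is a subunit of AP-1, which binds TGANTCA, start-site regions of the genes were searched for that motif on both strands. RefSeq sequences (GRCm38.p6) from 250 bases before to 50 bases after a start site were at hand for 3 of the 8 genes: 2 regions of Ctnnb1, 2 of Ctnnd1 and 1 of Jup. Cdh5, Cdh2, Ctnna1, Pecam1 and Esam had no entry. None of the 5 regions held TGANTCA, which 7.81% of all 32851 regions of that length held, and none held TGACGTCA, a related site for Jun with ATF partners, which 1.79% held. These letters are not in these windows, which is all the search shows. The 250 bases before the start of Jup and of the more downstream Ctnnb1 start are given because these are the members that changed, 5′ to 3′ on the gene's strand, from chr11:100397791-100398040 (minus strand) and chr9:120933328-120933577 (plus strand). Capitals mark CCAAT, the GC box GGGCGG and TATAAA on either strand. Of all regions, 37.4%, 35.7% and 13.6% held these in their full 300 bases, a longer window than the 250 bases printed.
Jup: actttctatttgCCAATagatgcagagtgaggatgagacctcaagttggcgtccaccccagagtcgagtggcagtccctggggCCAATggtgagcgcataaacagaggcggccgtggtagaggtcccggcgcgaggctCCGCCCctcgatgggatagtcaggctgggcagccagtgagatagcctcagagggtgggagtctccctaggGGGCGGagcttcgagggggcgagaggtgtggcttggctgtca
Ctnnb1: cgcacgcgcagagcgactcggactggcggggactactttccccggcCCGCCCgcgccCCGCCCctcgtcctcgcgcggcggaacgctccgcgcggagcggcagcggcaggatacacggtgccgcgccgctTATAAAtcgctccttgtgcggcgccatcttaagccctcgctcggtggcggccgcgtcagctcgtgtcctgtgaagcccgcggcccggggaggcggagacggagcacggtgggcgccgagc
The Jup stretch held 2 CCAAT boxes and 2 GC boxes and no TATAAA, and its GC content was 62%. The Ctnnb1 stretch held 1 TATAAA, 2 GC boxes and none of the other motif, and its GC content was 74.4%. The 250 bases before the more upstream Ctnnb1 start, not printed, held 2 CCAAT boxes, 3 GC boxes and no TATAAA.

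VE-cadherin itself lay higher in libraries labelled Jun-cKO by a small margin that did not pass. Cdh5, on chromosome 8 (104101625 to 104144511, plus strand, GRCm38, protein-coding), was at 507 and 492 CPM in Jun-Ctrl and at 613 and 598 CPM in libraries labelled Jun-cKO. The groups were well separated and the replicates close, within 0.05 on the log2 scale in each group. The fold change was 1.21 (95% interval 1.03 to 1.43), or 0.28 on the log2 scale (SE 0.12; edgeR, adjusted p = 0.0564). Cdh5 passed in 5 of 15 alternatives and did not in the other 10. It passed with DESeq2 (adjusted p = 0.0432), limma-voom (0.0368), edgeR's likelihood ratio test (0.0496) and a block for the replicate (0.0394). It also passed after GC correction (log2 fold change 0.35, adjusted p = 0.0118). It did not pass with upper-quartile scaling (0.104), library totals (0.137) or a filter of 50 counts (0.104), so a call depends on the setting. N-cadherin, the cadherin of nerve, muscle and mural cells, was nearly absent: Cdh2 had 9 and 2 counts in Jun-Ctrl and 5 and 0 counts in libraries labelled Jun-cKO. That is 0.478 CPM over the Jun-Ctrl group and 0.227 CPM over the other, where 3 counts would give 0.130 and 0.136 CPM. Cdh2 was removed by the filter, and a difference was not detectable at this depth.

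Alpha-catenin, which couples the cadherin complex to actin, followed VE-cadherin closely in CPM, but not after GC correction. Ctnna1 was at 2785 and 2676 CPM in Jun-Ctrl and at 3384 and 3253 CPM in libraries labelled Jun-cKO. The difference was 0.28 on the log2 scale (SE 0.13, edgeR adjusted p = 0.0858). It passed in 3 of 15 alternatives, with DESeq2 (0.0313), limma-voom (0.0379) and a block for the replicate (0.0414). After GC correction it moved to 0.12 (adjusted p = 0.478), where Cdh5 was at 0.35. The ratio of Ctnna1 to Cdh5 per kilobase, without GC correction, was 5.95, 5.90, 5.98 and 5.90 in the 4 libraries, the 2 Jun-Ctrl libraries first. Ctnnd1, for p120-catenin, was at 178 and 166 CPM in Jun-Ctrl and at 180 and 169 CPM in libraries labelled Jun-cKO. The groups overlapped, the log2 fold change was 0.02 (SE 0.11, 95% interval of the fold 0.867 to 1.19), and its sign turned negative after GC correction (-0.11), under library totals (-0.03) and under upper-quartile scaling (-0.01). Relative to Cdh5, Ctnnd1 was at 0.255 and 0.246 in Jun-Ctrl and at 0.214 and 0.206 in libraries labelled Jun-cKO, per kilobase.

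The immunoglobulin-type adhesion molecules of endothelial junctions did not pass. Pecam1, whose protein was used for the sort and which joins endothelial cells and signals at their contacts, was at 539 and 573 CPM in Jun-Ctrl and at 647 and 646 CPM in libraries labelled Jun-cKO. The groups did not overlap, and the log2 fold change was 0.22 (SE 0.12, 95% interval of the fold 0.985 to 1.38, adjusted p = 0.138 by edgeR). Pecam1 failed to pass in each of 15 alternatives, with adjusted p from 0.103 to 0.464. The summed lymphatic and blood endothelial markers, given above, were also higher in that group, but single markers went both ways. In the blood endothelial list Ednrb rose by more than the sum did, so the other markers together were lower. Plvap fell from 326 and 336 to 183 and 134 CPM, and Nrp1 from 53.7 and 51.7 to 7.40 and 6.35 CPM. Among 9 tested lymphatic markers 4 rose and 2 fell, and among 10 tested blood endothelial markers 3 rose and 4 fell. The part of these markers' cells in the values of Cdh5, Ctnna1 and Pecam1 was not tested. The Pecam1 gene lies on chromosome 11 (106654217 to 106750628, minus strand). Esam, which supports contacts at tight junctions and on platelets, was at 23.7 and 26.9 CPM in Jun-Ctrl and at 25.2 and 27.2 CPM in libraries labelled Jun-cKO. The groups overlapped, with a log2 fold change of 0.06 (SE 0.16), which was -0.00089 with library totals and 0.30 after GC correction (adjusted p = 0.107). Its gene lies on chromosome 9 (37528078 to 37538319, plus strand).

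**Figure D2:**
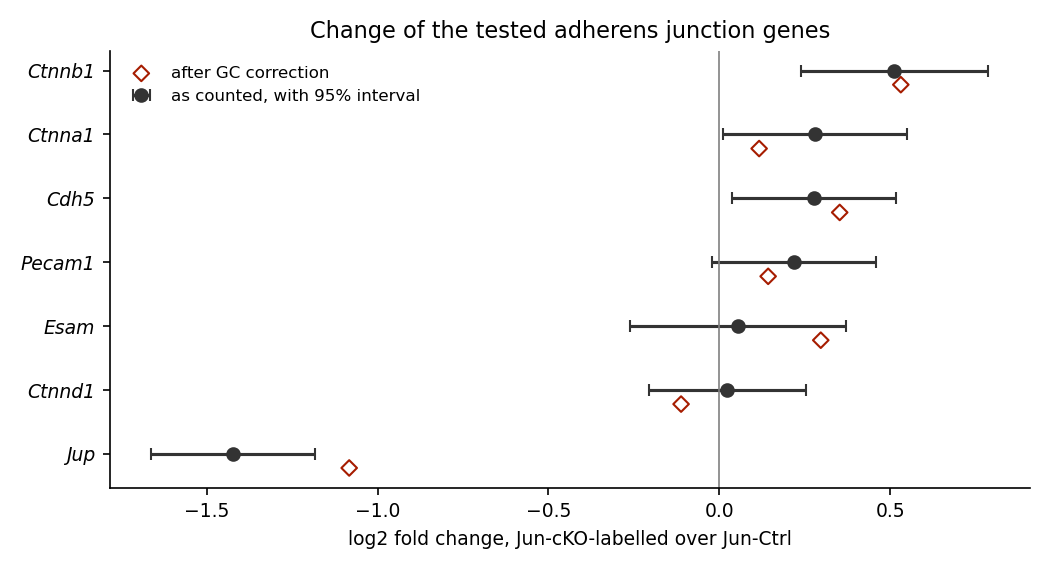
Log2 fold change of the 7 tested genes, Jun-cKO-labelled over Jun-Ctrl; filled points with bars give the edgeR estimate and its 95% interval, open diamonds the estimate after GC correction. Jup (-1.42) stands apart on the left and Ctnnb1 (0.51) lies highest, and the correction moves Jup to -1.08 and Ctnna1 from 0.28 to 0.12.

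Counts were given per gene, and overlapping gene models could bear on some of these values, which was not tested. In GENCODE M21 (GRCm38) Ctnnd1 (chromosome 2, 84600071 to 84650765, minus strand) shares 4482 exonic bases with Gm28635 on the same strand, a model with no row in the table. Ctnnb1 (chromosome 9, 120929216 to 120960507, plus strand) shares 759 exonic bases with Ulk4 on the other strand, which had 18 counts over all libraries. Ctnna1 shares 95 exonic bases with Lrrtm2 on the other strand, which had 317 counts. Jup (chromosome 11, 100368958 to 100397763, minus strand), Pecam1 and Esam overlap no other gene model, and Cdh5 and Cdh2 no exon of one.

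Plakoglobin is shared by adherens junctions and desmosomes, and 3 of the 4 tested desmosomal genes fell with it. Perp, a desmosomal membrane protein, fell 4.13-fold from 40.0 and 38.6 CPM in Jun-Ctrl to 10.2 and 8.42 CPM (adjusted p = 5.94e-14 by edgeR). Dsp, for desmoplakin, fell 10.9-fold from 3.15 and 4.28 to 0.328 and 0.295 CPM (adjusted p = 3.36e-07), and Pkp2, a plakophilin, fell 3.76-fold from 4.49 and 4.28 to 1.31 and 0.886 CPM. Dsg2, a desmosomal cadherin, rose 2.19-fold from 1.27 and 0.459 to 2.23 and 2.21 CPM (adjusted p = 0.0351), a call on few counts that was lost in 6 of 14 alternatives, among them the removal of Jun-Ctrl replicate 1 or 2 (adjusted p = 0.0546 or 0.289) and of Jun-cKO-labelled replicate 1 or 2 (0.163 or 0.0587). Of 7 desmosomal genes, 4 were tested, with 3 lower and 1 higher.

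The fall of Jup also went along with lower epithelial RNA, and epithelial cells express plakoglobin, desmosomal genes and E-cadherin. All 14 epithelial markers fell, by a median log2 fold change of -3.62, and none had 0 counts in all libraries. Epcam, an epithelial surface marker, was at 2.91 and 2.45 CPM in Jun-Ctrl and at 0.131 and 0 CPM in libraries labelled Jun-cKO. In the Jun-Ctrl libraries Jup stood at 28.4 and 33.2 times the level of Epcam and 24.1 and 28.4 times that of Cdh1 per kilobase. In libraries labelled Jun-cKO it stood at 46.1 and 82.5 times that of Cdh1. Relative to Perp, Jup was at 1.91 and 1.94 in Jun-Ctrl and at 2.93 and 3.11 in libraries labelled Jun-cKO. Epcam was the lowest of the 14 markers per kilobase in Jun-Ctrl. Sftpc, the highest, was at 1578 and 1660 CPM per kilobase there, against 40.1 and 39.4 for Jup. In percent of the Jun-Ctrl mean, Jup was at 39.6 and 34.7 in libraries labelled Jun-cKO, Cdh13 at 41.5 and 47.8, Dsp at 8.81 and 7.94 and the epithelial sum at 10.9 and 10.8. The part of epithelial RNA in the fall of Jup was not tested. The alternative without other cell types' marker genes left the counts of Jup as they were, so it could not test this. Cardiomyocytes also hold Jup and Cdh2 at their contacts, and 7 cardiomyocyte markers summed to 10.4 and 9.03 CPM in Jun-Ctrl and 7.47 and 6.94 CPM in libraries labelled Jun-cKO. Platelets hold Pecam1 and Esam, and 5 platelet markers, with Ppbp at 0 in all libraries, summed to 7.28 and 13.0 against 5.90 and 4.28 CPM.

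**Figure D3:**
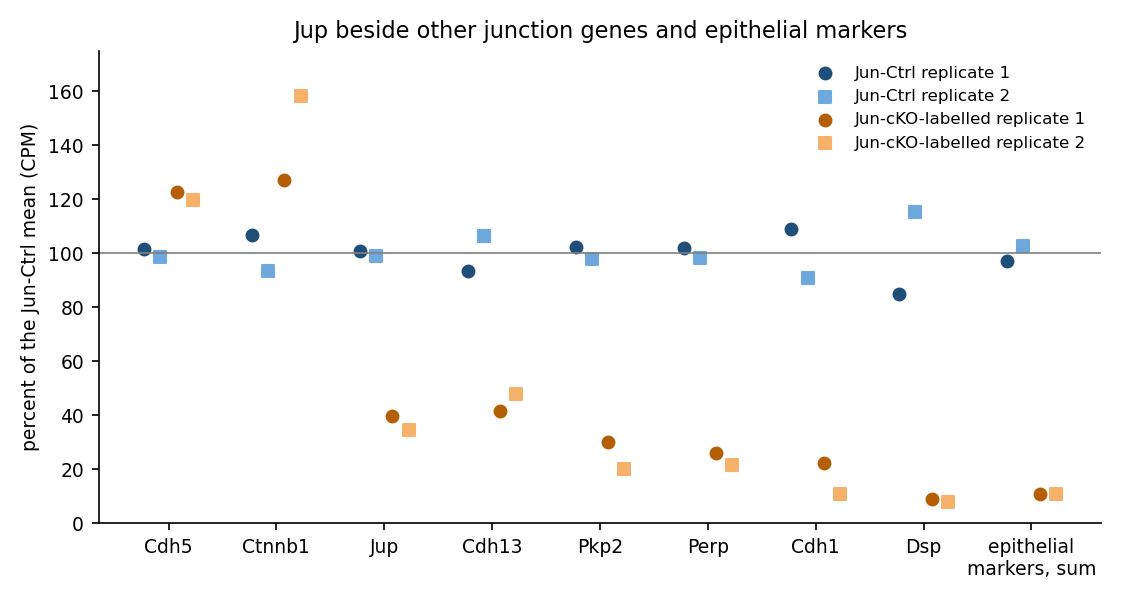
Level in each library in percent of the Jun-Ctrl mean (CPM) for Jup, 2 endothelial junction genes, 5 other cadherin or desmosomal genes and the summed epithelial markers; each point is a library and the line marks 100. Cdh5 and Ctnnb1 lie above 100 in both Jun-cKO-labelled libraries, while Jup lies at 39.6 and 34.7 and the epithelial sum at 10.9 and 10.8.

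Other cadherins that passed were lower, and all listed but Cdh13 were at 7.34 CPM or less in every library. Of 9 listed, 5 were tested, 4 fell and 0 rose, with a median log2 fold change of -1.17. T-cadherin, Cdh13, which is anchored to the membrane by lipid and has no catenin-binding tail, was the most abundant of them and fell 2.25-fold from 72.5 and 82.6 to 32.2 and 37.1 CPM (adjusted p = 6.99e-10 by edgeR). E-cadherin, Cdh1, fell 5.46-fold from 7.34 and 6.12 to 1.51 and 0.738 CPM, alongside the epithelial markers. Cdh4 fell 2.04-fold and Cdh24 4.76-fold, both from low levels, and the Cdh24 call was lost with DESeq2 (adjusted p = 0.124) and without Jun-Ctrl replicate 2 (0.0571). Per kilobase, Cdh5 stood at 3.72 ± 0.422 times the level of Cdh13 in Jun-Ctrl and at 10.1 ± 1.19 times in libraries labelled Jun-cKO (mean ± SD).

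Relatives of the catenins went both ways, with 2 higher and 2 lower of 4 tested among 7 listed. Arvcf, of the p120-catenin family, fell 2.28-fold from 9.95 and 9.64 to 4.65 and 3.69 CPM (adjusted p = 7.85e-05 by edgeR). Ctnnal1, an alpha-catenin-like gene, rose 1.37-fold from 179 and 189 to 238 and 265 CPM, a call lost without Jun-Ctrl replicate 1 (adjusted p = 0.0734). Ctnnbip1, which keeps beta-catenin from TCF factors, fell 1.30-fold, and its call ended after GC correction (adjusted p = 0.206), on leaving out Jun-Ctrl replicate 1 (0.0786) or Jun-cKO replicate 2 (0.0857). Pkp4, of the p120-catenin family as well, rose 1.22-fold, but the call was lost in 10 of 15 alternatives, among them removal of Jun-Ctrl replicate 1 or 2 (0.269 or 0.189) and of Jun-cKO-labelled replicate 2 (0.322).

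Nectins and afadin form the second adhesion system of the adherens junction. Of 9 listed genes 7 were tested, 1 rose and 3 fell. Nectin1, listed in the table as Pvrl1, fell 3.02-fold from 4.55 and 3.98 to 1.64 and 1.03 CPM (edgeR, adjusted p = 0.000295). Nectin2 (Pvrl2), the abundant nectin here, fell 1.30-fold from 441 and 513 to 382 and 350 CPM. That call ended after GC correction (adjusted p = 0.868), on leaving out Jun-Ctrl replicate 2 (0.165) or Jun-cKO replicate 2 (0.0554). Afdn (Mllt4), for afadin, rose 1.22-fold from 356 and 346 to 436 and 421 CPM, a call lost in 7 of 15 alternatives, among them removal of Jun-Ctrl replicate 1 or 2 (0.167 or 0.252) and of Jun-cKO-labelled replicate 1 (0.104).

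Among proteins that tie the junction to actin, 4 fell and 1 rose of 10 tested. Actn4, an alpha-actinin that crosslinks actin, fell 2.71-fold from 314 and 345 to 127 and 115 CPM (adjusted p = 4.29e-14 by edgeR), as far as Jup. Actn1, its close relative, fell 1.59-fold from 756 and 666 to 486 and 410 CPM, and zyxin, Zyx, fell 1.75-fold from 269 and 313 to 177 and 155 CPM. The Zyx transcript is GC-rich, at 63.1%, and its log2 fold change of -0.81 shrank to -0.33 after GC correction (edgeR, adjusted p = 0.0145). Vcl, for vinculin, which is drawn to alpha-catenin under tension, rose 1.28-fold from 219 and 186 to 239 and 281 CPM. The Vcl call was lost on leaving out Jun-Ctrl replicate 2 (adjusted p = 0.316) or Jun-cKO replicate 2 (0.134). The sum of the list was 2397 and 2352 CPM in Jun-Ctrl and 1804 and 1685 CPM in libraries labelled Jun-cKO, and mesenchymal cells, whose markers fell, express these genes too. Their part was not tested.

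Kinases and phosphatases of the junction mostly did not pass, with 1 higher and 1 lower of 11 tested among 12 listed. Ptpn1, a phosphatase that acts on cadherin-bound beta-catenin, fell 1.42-fold from 85.6 and 85.4 to 60.5 and 59.9 CPM (adjusted p = 0.000731 by edgeR). Yes1, a Src-family kinase, rose 1.29-fold from 81.9 and 71.8 to 96.2 and 103 CPM, and this call ended after GC correction (adjusted p = 0.448) and without Jun-Ctrl replicate 2 (0.224). Ptprb, the endothelial phosphatase that binds VE-cadherin, named here after its values were seen, was at 256 and 247 against 276 and 286 CPM without a call.

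Rap1, a small GTPase that strengthens VE-cadherin contacts, and the CCM proteins that act with it gave 2 higher and 3 lower of 11 tested. The Rap1 exchange factors Rapgef1 and Rapgef3 both fell. Rapgef1 went from 99.0 ± 0.442 to 55.6 ± 7.84 CPM (1.76-fold) and Rapgef3 from 22.1 and 24.8 to 15.5 and 15.5 CPM (-0.58 on the log2 scale). Rasip1, an endothelial Rap1 effector, fell 1.43-fold from 282 and 269 to 207 and 178 CPM. Ccm2, a scaffold of the CCM complex, rose 1.49-fold from 45.3 and 52.3 to 67.8 and 76.8 CPM (adjusted p = 0.000356 by edgeR). Rap1b, for Rap1 itself, rose 1.30-fold from 610 and 577 to 762 and 781 CPM (edgeR, adjusted p = 0.0101). It was named here after its values were seen, and its call ended after GC correction (edgeR, adjusted p = 0.480). The calls of Rasip1 and Rapgef3 ended after GC correction (adjusted p = 0.905 and 0.229) and that of Ccm2 without Jun-Ctrl replicate 1 (0.0642).

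Other immunoglobulin-type junction genes gave 3 higher and 3 lower of 9 tested. Cxadr, for the coxsackievirus and adenovirus receptor, rose 1.61-fold from 214 and 188 to 292 and 357 CPM (adjusted p = 8.77e-06 by edgeR), and Jam3, a junctional adhesion molecule, rose 1.51-fold from 29.8 and 25.6 to 44.2 and 40.0 CPM. Clmp, a relative of Cxadr, fell 6.18-fold from 5.28 and 7.04 to 0.917 and 1.03 CPM. Jam2 fell 4.84-fold from 1.76 and 1.99 to 0.197 and 0.738 CPM, and this call on few counts ended with DESeq2 (adjusted p = 0.0531), on leaving out Jun-Ctrl replicate 1 (0.0606) or Jun-cKO replicate 1 (0.170).

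Over all 8 lists, 61 of 74 genes were tested, of which 11 (6 after GC correction) rose and 23 (24) fell, with a median log2 fold change of -0.19. Among all 12656 tested genes 19.0% rose and 22.5% fell. These lists were chosen and hold genes that other cell types express, so nothing is read from their direction. Against a 1.5-fold change, 12 of the 61 passed and all 12 were lower. That test leaned the same way among all 12656 genes, with 1453 called, 1192 of them lower and 261 higher.

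**Figure D4:**
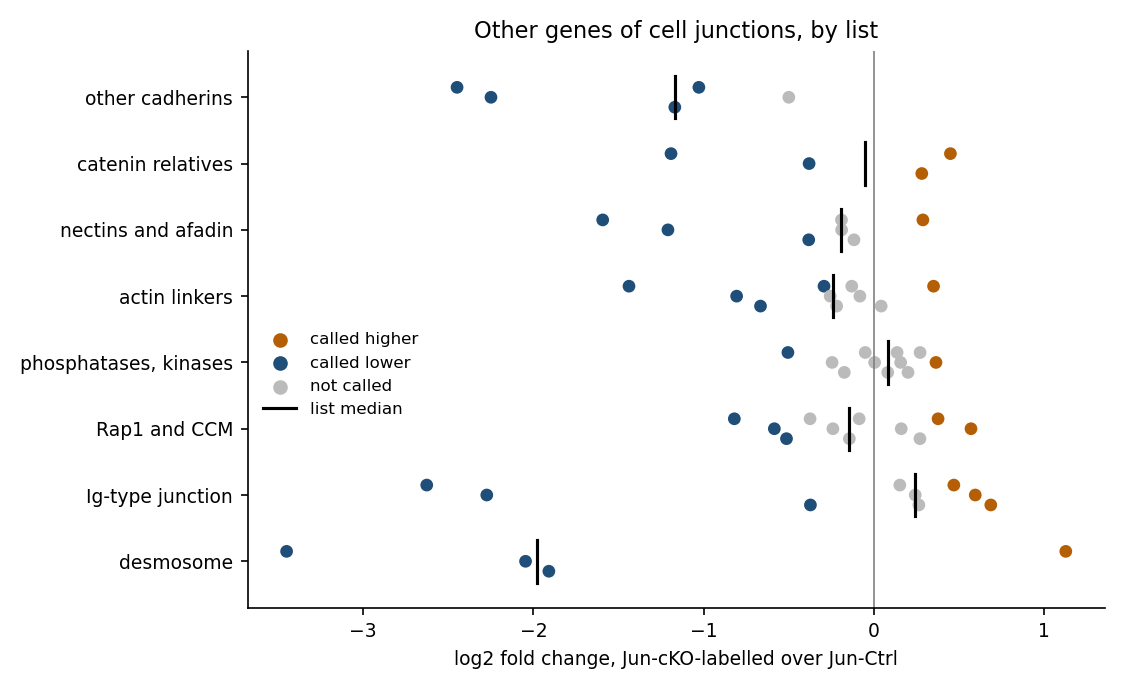
Log2 fold change of each tested gene of 8 lists of cell junction genes, Jun-cKO-labelled over Jun-Ctrl; points are genes, coloured by edgeR call, and black bars are list medians. The desmosome and other-cadherin lists have the lowest medians, -1.98 and -1.17, and the largest rises are those of Dsg2 (1.13) and Cxadr (0.69).

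The pattern of Cdh5 over the libraries was compared with that of 10036 other tested genes whose mean count was 50 or more, as the Euclidean distance of log2 CPM values, each minus its gene's mean. The nearest were Pdhx (0.011), Senp2 (0.013) and Psme4 (0.015), and Ctnna1 was next but one, with 4 genes nearer, at 0.017. Pecam1 was at 0.11, Ctnnd1 at 0.26, Ctnnb1 at 0.35 and Jup at 1.71. These distances rest on 4 libraries and on CPM without GC correction, and 275 genes lay within 0.1 of Cdh5.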

How the data were processed

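Raw read counts per gene (24421 rows, 4 libraries) and gene lengths were used as deposited by the authors. STAR 2.7.2a, featureCounts 1.6.4, edgeR 3.28.1 and mm10 are named without roles, per the submitters' processing notes; the annotation and strand setting are not stated in the sources used here. Columns were matched to libraries by title. Replicate 2 is the library whose title holds the word replicate.

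The test was edgeR's quasi-likelihood test (version 4.0.16, R version 4.3.3) on the counts, after TMM scaling and filterByExpr, which left 12656 genes. The comparison was Jun-cKO against Jun-Ctrl, without a block, and a call is a Benjamini-Hochberg adjusted p under 0.05 over all tested genes. Standard errors are the log2 fold change divided by the root of F. CPM values are TMM-scaled, and levels per kilobase divide them by the deposited length. The GC correction enters, as an offset, the smooth dependence (loess, span 0.5) of every library's deviation on transcript GC content (GENCODE M21). Alternatives were 3 scalings, DESeq2 1.42.0, limma-voom (limma 3.58.1), the likelihood ratio test, 2 filters, a block, each library left out, removal of other cell types' markers, the GC correction and a test against a 1.5-fold change, which is not among the 15 alternatives counted per gene. The fit was also run on simulated counts with known changes, a common spread for all genes and no GC trend. Its outcome is not given, and no support for the calls is drawn from it.

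The rule for the 8 genes uses no measured value, but they and all lists were chosen with earlier results of these data known. Named are the 8 genes, Jun, in each list up to 4 called genes with the smallest p, and the 3 genes nearest to Cdh5. Ptprb and Rap1b were named outside this rule. A called gene of the nectin list is not reported here by name. Coordinates of Cdh2 and Ctnna1 are not reported here. Depth sets the precision: 3 counts equal 0.182 and 0.459 CPM (Jun-Ctrl) or 0.197 and 0.443 CPM (Jun-cKO). Reads of amplified RNA are not independent molecules, so such floors cover counting error only.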

Additional observations from a re-analysis of the deposited data

How the results depend on the processing

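Jup kept its call in all alternatives. The count of called genes among the 8 was 2, and 4 with DESeq2, with limma-voom and with the replicate block, where Cdh5 and Ctnna1 were added (adjusted p = 0.0394 and 0.0414 with the block). Over all 12656 genes these fits called 3591, 5311 and 5426. The count was 3 with the likelihood ratio test (5404 over all genes) and after GC correction; it was 1 to 2 with a library left out, 1 being without Jun-Ctrl replicate 2, and 1, Jup, against a 1.5-fold change. The titles give no replicate numbers that pair libraries, and deviations of like-marked libraries correlated at 0.0732 across genes, so the block rests on a shared word alone. Among the other junction genes 34 were called, 24 to 29 with a library left out and 12 against a 1.5-fold change. Over all genes 5251 were called, 2992 to 4794 with a library left out (2992 and 3425 without Jun-Ctrl replicate 1 and 2) and 1453 against a 1.5-fold change. The sign of Ctnnd1, uncalled throughout, was negative in 6 alternatives, 2 of them with a library left out: upper-quartile scaling (-0.014), library totals (-0.033), the filter of 50 counts (-0.015), GC correction (-0.11) and with a library left out (-0.045, without Jun-Ctrl replicate 2, to 0.075). That of Esam was negative with library totals (-0.00089) and ran from -0.058, without Jun-Ctrl replicate 1, to 0.12 with a library left out. The cause was not tested. The ratio of Ctnnb1 to Jup in Jun-Ctrl was 13.0 per kilobase and 9.39 without division by length.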
